A study of Mus musculus with 8 samples.

Results

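The genes described are the replacement histones, the oocyte linker histone and the egg nucleoplasmin, 10 of the 23234 genes listed in each library: H1foo, H1f0, H3f3a, H3f3b, H2afx, H2afz, H2afv, H2afy, H2afy2 and Npm2. They were taken by symbol, as replication-independent histones of the mouse together with Npm2, by a rule that does not refer to measured values. RNA-seq was run on pooled mouse embryos in 4 groups of 2 libraries each. The groups were Tet3-null blastocysts, wild-type blastocysts, Tet3-null 2-cell embryos and wild-type 2-cell embryos. Blastocysts were taken in pools of 7 at 96 h after fertilization and 2-cell embryos in pools of 10 at 30 h. The Tet3 enzyme oxidizes methylated cytosine after fertilization, and the design asks what its loss from the oocyte changes at each stage. Oocytes of the Tet3-null groups, labelled CKO, came from Zp3-Cre, f/- females, in which Cre is driven by a promoter of growing oocytes. Oocytes of the wild-type groups came from f/f females, whose Cre status the labels do not give. All oocytes were superovulated and were fertilized with sperm of the CAST/EiJ strain, so every embryo carries a paternal Tet3 allele. Tet3-null names the oocyte: by design these embryos lack a working maternal Tet3 allele, which wild-type embryos have. Loss of Tet3 from the oocyte and the missing maternal allele in the embryo cannot be told apart here. Whole embryos were lysed and their RNA was amplified as cDNA, without selection of cells. In such bulk samples fewer cells of a type and less RNA per cell cannot be told apart.

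Replacement histones are mostly made outside S phase from polyadenylated mRNAs, many from genes with introns, unlike the replication-coupled histones. The oocyte stores their mRNAs and proteins, and the embryo uses them to rebuild the paternal genome after protamines are removed and then to replace the oocyte chromatin. H1foo encodes the oocyte linker histone (H1oo), which is exchanged for somatic linker histones after genome activation, and H1f0 encodes H1.0, a linker histone of non-dividing and differentiated cells. H3f3a and H3f3b encode the same protein, the H3.3 that the HIRA and the DAXX-ATRX chaperones deposit. H2afz and H2afv encode the closely related proteins H2A.Z.1 and H2A.Z.2, H2afx encodes H2A.X, which is phosphorylated at DNA breaks, and H2afy and H2afy2 encode macroH2A1 and macroH2A2, which carry a macrodomain and are enriched on the inactive X chromosome. Npm2 encodes the nucleoplasmin that stores H2A-H2B and decondenses sperm chromatin in the egg.

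The promoters of 4 members are shown: H1foo as an oocyte gene, H2afy as the member with the largest rise, and H3f3a and H3f3b because they make the same protein from unequal amounts of mRNA. Promoter sequences were available for 8 of the 10 members in the RefSeq table of GRCm38.p6, a later build than the mm9 to which the reads were aligned. Each sequence is the 250 bases before the annotated start, 5′ to 3′ on the gene's strand, at chr6:115944681-115944930 (plus strand) for H1foo, chr13:56135551-56135800 (minus strand) for H2afy, chr1:180813606-180813855 (minus strand) for H3f3a and chr11:116024505-116024754 (minus strand) for H3f3b. Capitals mark matches to the E-box (CANNTG), the CCAAT box, the GC box (GGGCGG), the TATA box (TATAAA) or the octamer (ATGCAAAT), searched on both strands, so that a CCAAT box on the other strand reads ATTGG.
H1foo: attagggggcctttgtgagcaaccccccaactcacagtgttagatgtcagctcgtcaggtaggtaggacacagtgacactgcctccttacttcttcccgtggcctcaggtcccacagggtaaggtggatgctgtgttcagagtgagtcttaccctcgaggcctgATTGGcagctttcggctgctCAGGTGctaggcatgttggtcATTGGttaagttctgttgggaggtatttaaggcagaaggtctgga
H2afy: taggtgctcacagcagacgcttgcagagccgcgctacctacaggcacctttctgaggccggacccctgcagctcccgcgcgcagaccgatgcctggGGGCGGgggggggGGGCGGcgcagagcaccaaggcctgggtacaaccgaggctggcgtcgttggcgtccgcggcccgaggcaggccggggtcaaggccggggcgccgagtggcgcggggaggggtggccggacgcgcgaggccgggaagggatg
H3f3a: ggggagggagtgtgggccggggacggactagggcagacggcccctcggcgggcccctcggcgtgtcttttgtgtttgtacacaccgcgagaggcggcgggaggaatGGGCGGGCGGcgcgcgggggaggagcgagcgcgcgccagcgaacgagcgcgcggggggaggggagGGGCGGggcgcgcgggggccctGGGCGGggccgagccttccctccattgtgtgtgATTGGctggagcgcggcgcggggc
H3f3b: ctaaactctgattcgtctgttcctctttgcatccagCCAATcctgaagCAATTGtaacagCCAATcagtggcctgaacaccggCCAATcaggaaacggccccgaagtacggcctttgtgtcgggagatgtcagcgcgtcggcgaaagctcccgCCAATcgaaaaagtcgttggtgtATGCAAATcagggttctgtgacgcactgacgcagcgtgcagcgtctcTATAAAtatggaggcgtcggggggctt

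The H1foo window held 4 CpG and the E-box CAGGTG with its first base 66 bases before the start, between ATTGG matches at 86 and 45 bases. The H2afy and H3f3a windows held 29 and 35 CpG, with 2 and 4 GC boxes. In H3f3a, 2 of these GC boxes overlap each other, at 144 and 140 bases. The H3f3b window held 19 CpG, 4 CCAAT boxes, a TATA box at 27 bases and an octamer at 74 bases. The median over 32851 RefSeq promoter windows of the same length was 6 CpG, and the shares holding at least 1 match were 66.2% for the E-box, 33.8% for CCAAT, 32.7% for the GC box, 12.4% for the TATA box and 1.6% for the octamer. The Nobox element TAATTG and the cAMP response element TGACGTCA, in 7.17% and 1.55% of windows, were not matched in the windows of the 8 members. Letter matches describe the windows only and show no binding.

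The libraries fitted their labels by stage. FPKM counts the fragments mapped to a gene, scaled by its length and by the mapped fragments of the library. The 7 blastocyst markers were Cdx2, Krt8, Krt18, Nanog, Gata6, Tfap2c and Pou5f1. They summed to 2894 to 4584 FPKM in the 4 blastocyst libraries and to 196 to 218 FPKM in the 4 2-cell libraries. Krt18 made up most of each blastocyst sum and Nanog most of each 2-cell sum. In each genotype 5 of the 7 were called higher in blastocysts by the test given below. Nanog did not rise, at 114 to 145 FPKM in blastocysts and 134 to 167 FPKM in 2-cell embryos. The 5 markers of the 2-cell stage summed to 0.731 to 3.42 FPKM in blastocyst libraries and 1000 to 1866 FPKM in 2-cell libraries. Tet3 mRNA measured 0.519 and 0.412 FPKM in Tet3-null and 0.957 and 0.459 FPKM in wild-type blastocysts, and at 3.28 and 4.41 FPKM in Tet3-null and 10.8 and 7.54 FPKM in wild-type 2-cell embryos. Read totals are unknown. The FPKM summed over all genes was 924556 to 956335 per blastocyst library and 600495 to 634816 per 2-cell library, and 10607 to 11660 genes reached 1 FPKM. Tet3-null 2-cell replicate 2 stood apart, with 7101 genes listed at 0, against 5549 to 6080 in the other 2-cell libraries. The 9 cumulus and granulosa markers summed to 8.4975 to 11.1 FPKM in blastocysts and 23.2 to 41.3 FPKM in 2-cell embryos. The 2-cell sums were nearly all Tnfaip6, at 14.3 to 29.5 FPKM, and Amhr2, at 6.78 to 13.3 FPKM. The rest of that list reached at most 0.765 FPKM at the 2-cell stage. In blastocysts Amhr2 measured 6.19 to 9.79 FPKM. The 7 sperm markers summed to 4.86 to 7.61 FPKM in blastocysts and 7.39 to 23.4 FPKM in 2-cell embryos. In both Tet3-null 2-cell libraries 2 of the 9 cumulus and granulosa markers were listed at 0, and in both wild-type ones 4 were; the 4 blood markers summed to at most 0.256 FPKM in any library. The part of these cells in the results below was not tested. Whether the 2 libraries of a group are separate collections is not stated, so a p-value here covers the spread between these samples alone, and that spread may be technical.

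Between the 2-cell stage and the blastocyst 7 of the 9 members tested changed. The oocyte genes H1foo and Npm2 fell to a few percent of their 2-cell level or less, both H3.3 genes and H2afv fell, H2afy and H2afx rose, and H2afz and H1f0 did not pass the test. The test was limma on log2(FPKM + 1) over the 13549 genes that reached 1 FPKM in 2 or more libraries, with Benjamini-Hochberg adjustment over all of them, and a gene is called where its adjusted p is under 0.05. H2afy2, at most 0.904 FPKM in any library, did not pass the filter, which leaves 9 members tested. Of the 9 in Tet3-null embryos, blastocysts had 2 called higher and 5 lower, where 38.9% of all genes tested were called higher and 35.1% lower (74% in all). In wild type the counts were also 2 and 5, where 35.8% of all genes were called higher and 38.4% lower (74.3% in all). The share of members called is therefore near that of all genes. Scaling every library to the same summed FPKM, an alternative chosen after the sums were seen, moved the split over all genes from 5276 higher and 4752 lower to 4218 and 5868 in Tet3-null, and from 4857 and 5207 to 3647 and 6464 in wild-type embryos. It left the 7 calls of each genotype in place. Without overlap between stages, 2 of the 9 were higher and 6 lower in each genotype, where 44.8% of all genes were higher and 41.3% lower in Tet3-null embryos, and 43% and 46.3% in wild-type embryos. The median log2 change of the 9 was -0.85 in Tet3-null and -0.66 in wild type, against 0.09 and -0.08 over all genes tested.

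**Figure D1:**
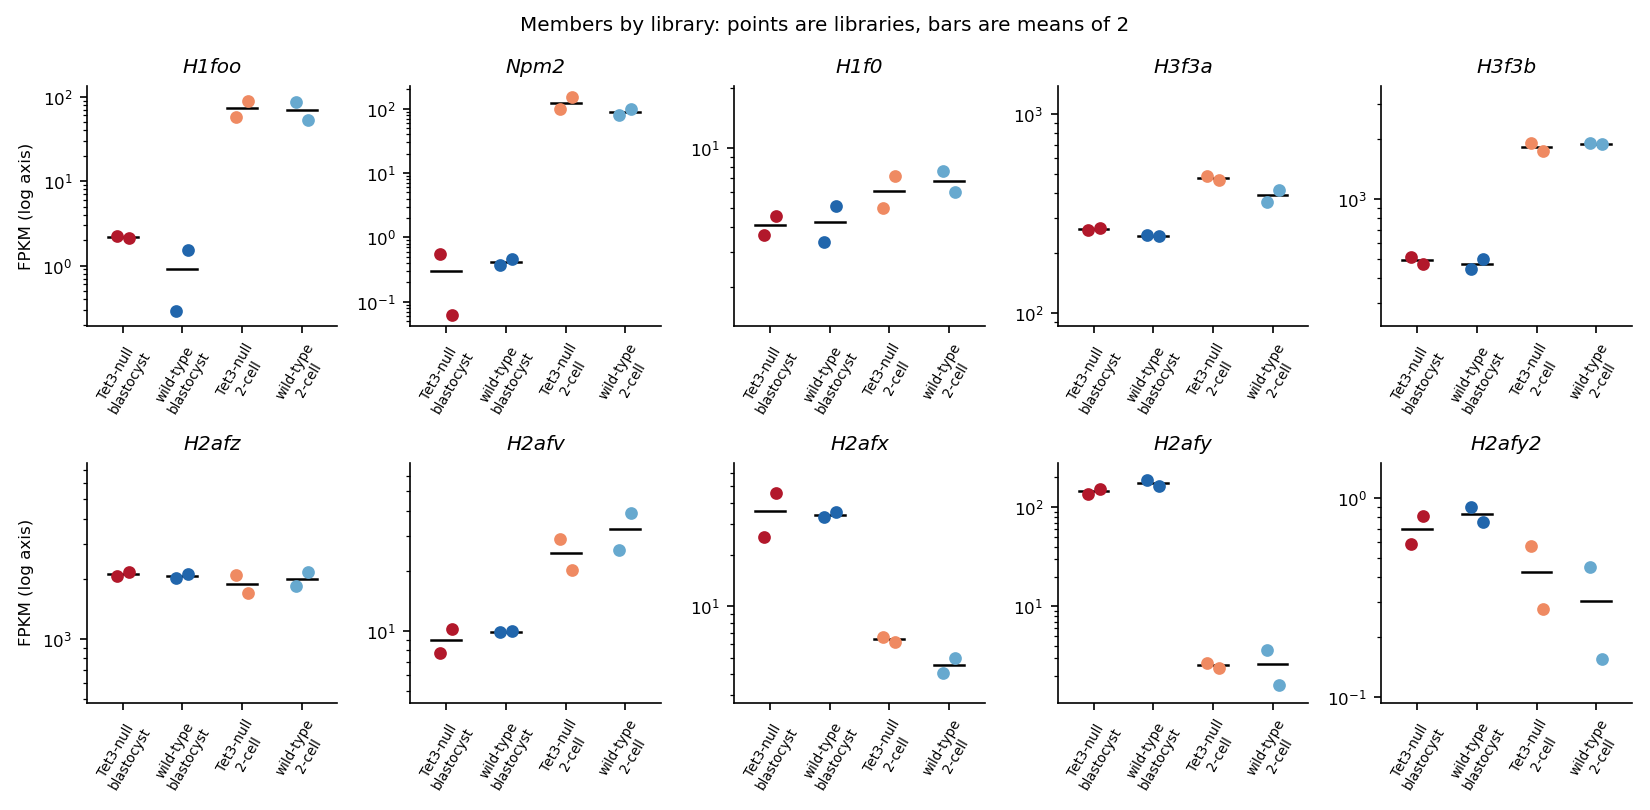
FPKM of the 10 members by library, on log axes that differ between panels. Each point is a library, each bar the mean of 2, and the groups run from Tet3-null and wild-type blastocysts on the left to Tet3-null and wild-type 2-cell embryos on the right. H1foo and Npm2 are high at the 2-cell stage, H2afy and H2afx in blastocysts, and H2afz lies between 1688 and 2163 FPKM throughout.

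H1foo, the oocyte linker histone, had 2.26 and 2.12 FPKM in Tet3-null blastocysts, against 56.8 and 89.3 FPKM in Tet3-null 2-cell embryos. In wild type it had 0.287 and 1.51 FPKM in blastocysts, against 86.2 and 53.0 FPKM in 2-cell embryos. Every blastocyst library was lower than every 2-cell library. Mean FPKM was 33.3-fold lower in Tet3-null blastocysts (log2 change -4.50, SE 0.39, limma adjusted p = 3.83e-05) and 77.3-fold lower in wild-type blastocysts (log2 change -5.25, SE 0.39, adjusted p = 2.02e-05). The wild-type fold rests on low blastocyst values that differ between the libraries; the log2 change was -4.77 without wild-type blastocyst replicate 1 and -5.74 without replicate 2. By level H1foo ranked between 8951 and 12971 of all listed genes in blastocysts and between 1019 and 1755 in 2-cell embryos.

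Npm2, the egg nucleoplasmin, had 0.547 and 0.0622 FPKM in Tet3-null blastocysts, against 99.2 and 151 FPKM in Tet3-null 2-cell embryos. In wild type it had 0.367 and 0.466 FPKM in blastocysts, against 78.7 and 98.1 FPKM in 2-cell embryos. It fell below 1 FPKM in all 4 blastocyst libraries. The log2 change was -6.59 (SE 0.27, limma adjusted p = 1.65e-06) in Tet3-null and -5.97 (SE 0.27, adjusted p = 2.79e-06) in wild-type embryos. The ratio of mean FPKM, 411-fold lower in Tet3-null and 212-fold lower in wild-type blastocysts, rests on the very low blastocyst values. The 10 oocyte markers fell with both genes: they summed to 39.6 to 44.6 FPKM in blastocysts and 1574 to 2458 FPKM in 2-cell embryos, and 10 of 10 were called lower in Tet3-null and 9 of 10 in wild-type embryos. The 6 housekeeping genes, 5 of them called higher in each genotype, summed to 22562 to 24256 FPKM in blastocysts and 1589 to 2026 FPKM in 2-cell embryos.

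H1f0, the linker histone H1.0, stayed low at both stages. It had 3.64 and 4.52 FPKM in Tet3-null blastocysts, against 4.99 and 7.17 FPKM in Tet3-null 2-cell embryos, and 3.38 and 5.12 FPKM in wild-type blastocysts, against 7.65 and 6.01 FPKM in wild-type 2-cell embryos. The blastocyst libraries lay below the 2-cell libraries in both genotypes. The log2 change was -0.47 (SE 0.25, limma adjusted p = 0.134) in Tet3-null and -0.59 (SE 0.25, adjusted p = 0.0693) in wild-type embryos, and neither was called. The wild-type value was called without Tet3-null 2-cell replicate 1 (adjusted p = 0.0495) and without replicate 2 (0.04999), which left the difference itself unchanged.

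Between H1foo and H1f0, the linker histone genes among the members, the balance of mRNA therefore differed between stages. Other linker histone genes are not part of this balance. H1foo made up 38.3% and 31.9% of the summed H1foo and H1f0 FPKM in Tet3-null blastocysts and 7.81% and 22.8% in wild-type blastocysts, against 91.9% and 92.6% in Tet3-null 2-cell embryos and 91.9% and 89.8% in wild-type 2-cell embryos. The log2 ratio of H1f0 to H1foo was 1.10 ± 0.550 in the 4 blastocyst libraries and -3.25 ± 0.222 in the 4 2-cell libraries (SD), a difference of 4.35. For this ratio and for 2 others given below, the two-sided exact permutation test of 4 libraries against 4 gave p = 0.0286, the smallest it allows. After adjustment over the 4 ratios computed it was also 0.0286. Each side of the test pooled the Tet3-null and wild-type libraries of a stage. Ratios are of FPKM + 1. As H1f0 and H2afz were not called, the ratios H1f0 to H1foo and H2afz to H2afv largely restate the falls of H1foo and H2afv. Their p-values are no separate support for those falls.

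The H3.3 genes H3f3a and H3f3b, which encode the same protein, both fell, and unequally. H3f3b had 512 and 471 FPKM in Tet3-null blastocysts, against 1898 and 1735 FPKM in Tet3-null 2-cell embryos, and 444 and 500 FPKM in wild-type blastocysts, against 1906 and 1880 FPKM in wild-type 2-cell embryos. It was 3.69-fold lower in Tet3-null blastocysts (log2 change -1.88, SE 0.12, limma adjusted p = 9.12e-06) and 4.01-fold lower in wild-type blastocysts (-2.00, SE 0.12, adjusted p = 7.94e-06). H3f3a had 261 and 266 FPKM in Tet3-null blastocysts, against 487 and 465 FPKM in Tet3-null 2-cell embryos. In wild type it had 246 and 244 FPKM in blastocysts, against 363 and 416 FPKM in 2-cell embryos. It was 1.80-fold lower in Tet3-null blastocysts (log2 change -0.85, SE 0.12, limma adjusted p = 0.000470) and 1.59-fold lower in wild-type blastocysts (-0.66, SE 0.12, adjusted p = 0.00168). Neither gene's stage groups overlapped.

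H3f3b was the more abundant of the pair in all 8 libraries, and its lead was smaller in blastocysts. Its FPKM was 1.96 and 1.77 times that of H3f3a in Tet3-null blastocysts and 1.80 and 2.05 times in wild-type blastocysts, against 3.90 and 3.73 times in Tet3-null and 5.25 and 4.52 times in wild-type 2-cell embryos. The log2 ratio of H3f3a to H3f3b was -0.92 ± 0.09999 in blastocysts and -2.11 ± 0.223 in 2-cell embryos (SD, 4 libraries each), a difference of 1.19. Together both genes reached 774 and 738 FPKM in Tet3-null and 690 and 744 FPKM in wild-type blastocysts, against 2384 and 2200 FPKM in Tet3-null and 2269 and 2296 FPKM in wild-type 2-cell embryos. Reads of this pair can be told apart: the coding sequences, each of 408 bases in GENCODE M21, are identical at 313 bases (76.7%), and the longest identical stretch is 23 bases. Copies elsewhere limit H3f3a more. Of the 50-base windows of the transcript with its longest coding sequence, 30.3% also occur in transcripts of 41 other genes. For H3f3b the share was 8.4%. How shared reads were assigned is not given in the sources used here.

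**Figure D2:**
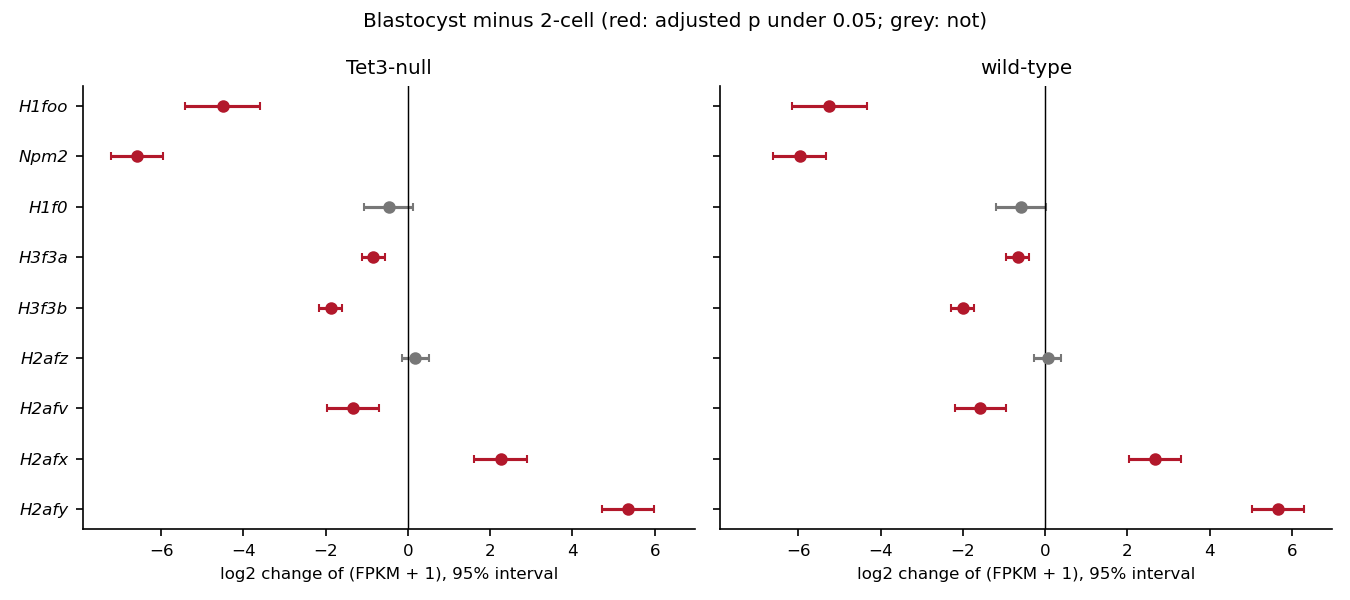
Log2 change of FPKM + 1, blastocyst minus 2-cell, with 95% intervals for the 9 members tested, in Tet3-null embryos (left) and wild-type embryos (right). Red points had a limma adjusted p under 0.05 and grey ones did not; H1f0 and H2afz are the grey points in both panels.

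H2afz, which encodes H2A.Z.1, was among the most abundant mRNAs of the embryo at both stages. It had 2074 and 2163 FPKM in Tet3-null blastocysts, against 2080 and 1688 FPKM in Tet3-null 2-cell embryos, and 2027 and 2114 FPKM in wild-type blastocysts, against 1833 and 2157 FPKM in wild-type 2-cell embryos. The stage groups overlapped. The log2 change was 0.18 (95% interval -0.15 to 0.51, limma adjusted p = 0.284) in Tet3-null and 0.06 (-0.27 to 0.39, adjusted p = 0.723) in wild-type embryos. This value depends on the scale. H2afz ranked 80 to 85 by FPKM in blastocysts and 28 to 48 in 2-cell embryos, and it held 0.219% to 0.226% of the summed FPKM in blastocysts and 0.266% to 0.345% in 2-cell embryos. With every library scaled to the same summed FPKM, H2afz was called lower in Tet3-null blastocysts (log2 change -0.41, adjusted p = 0.0225) and in wild-type blastocysts (-0.55, adjusted p = 0.00613), where the median of all genes moved to -0.37 and -0.59. Quantile normalization, which left that median near 0, also gave lower values (-0.64, adjusted p = 0.00390, and -0.85, adjusted p = 0.000945). In addition, 69.6% of the 50-base windows of its transcript occur in transcripts of 6 other genes, so its level is uncertain.

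H2afv, which encodes H2A.Z.2, fell. It had 7.79 and 10.2 FPKM in Tet3-null blastocysts, against 28.8 and 20.1 FPKM in Tet3-null 2-cell embryos, and 9.82 and 10.008 FPKM in wild-type blastocysts, against 25.5 and 39.1 FPKM in wild-type 2-cell embryos. It was 2.72-fold lower in Tet3-null blastocysts (log2 change -1.34, SE 0.26, limma adjusted p = 0.00270) and 3.26-fold lower in wild-type blastocysts (-1.58, SE 0.26, adjusted p = 0.00121). Its transcript shares no 50-base window with another gene. H2afz exceeded it 266-fold and 212-fold in Tet3-null blastocysts and 206-fold and 211-fold in wild-type blastocysts, against 72.2-fold and 83.8-fold in Tet3-null 2-cell embryos and 71.9-fold and 55.2-fold in wild-type 2-cell embryos. The log2 ratio of H2afz to H2afv was 7.65 ± 0.155 in blastocysts and 6.08 ± 0.237 in 2-cell embryos (SD, 4 libraries each), a difference of 1.58. The coding sequences of this pair, each of 384 bases, are identical at 304 (79.2%), with a longest identical stretch of 14 bases.

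H2afx, the H2A variant phosphorylated at DNA breaks, rose. It had 25.4 and 46.0 FPKM in Tet3-null blastocysts, against 6.57 and 6.20 FPKM in Tet3-null 2-cell embryos, and 33.1 and 35.3 FPKM in wild-type blastocysts, against 4.08 and 4.95 FPKM in wild-type 2-cell embryos. It was 5.59-fold higher in Tet3-null blastocysts (log2 change 2.25, SE 0.27, limma adjusted p = 0.000209) and 7.57-fold higher in wild-type blastocysts (2.68, SE 0.27, adjusted p = 9.15e-05). Both Tet3-null blastocyst libraries lay outside the narrow wild-type range, on either side of it. H2afx is also known to make a replication-coupled mRNA with a stem-loop end, which FPKM per gene does not separate from the polyadenylated form.

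H2afy, which encodes macroH2A1, rose most of the members tested. It had 135 and 154 FPKM in Tet3-null blastocysts, against 2.68 and 2.42 FPKM in Tet3-null 2-cell embryos, and 188 and 164 FPKM in wild-type blastocysts, against 3.61 and 1.61 FPKM in wild-type 2-cell embryos. It was 56.7-fold higher in Tet3-null blastocysts (log2 change 5.36, SE 0.27, limma adjusted p = 3.39e-06) and 67.4-fold higher in wild-type blastocysts (5.67, SE 0.27, adjusted p = 3.11e-06). Its rank by FPKM was between 710 and 943 in blastocysts and between 8141 and 10312 in 2-cell embryos. H2afy2, which encodes macroH2A2, had 0.584 and 0.808 FPKM in Tet3-null blastocysts, against 0.571 and 0.278 FPKM in Tet3-null 2-cell embryos, and 0.904 and 0.759 FPKM in wild-type blastocysts, against 0.451 and 0.156 FPKM in wild-type 2-cell embryos. Its stage groups did not overlap, but the values were too low to pass the filter and were not tested. The log2 ratio of H2afy to H2afy2 was 6.51 ± 0.103 in blastocysts and 1.37 ± 0.224 in 2-cell embryos (SD, 4 libraries each); with H2afy2 under 1 FPKM this ratio of FPKM + 1 largely restates the H2afy level, and it is given as a description only.

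**Figure D3:**
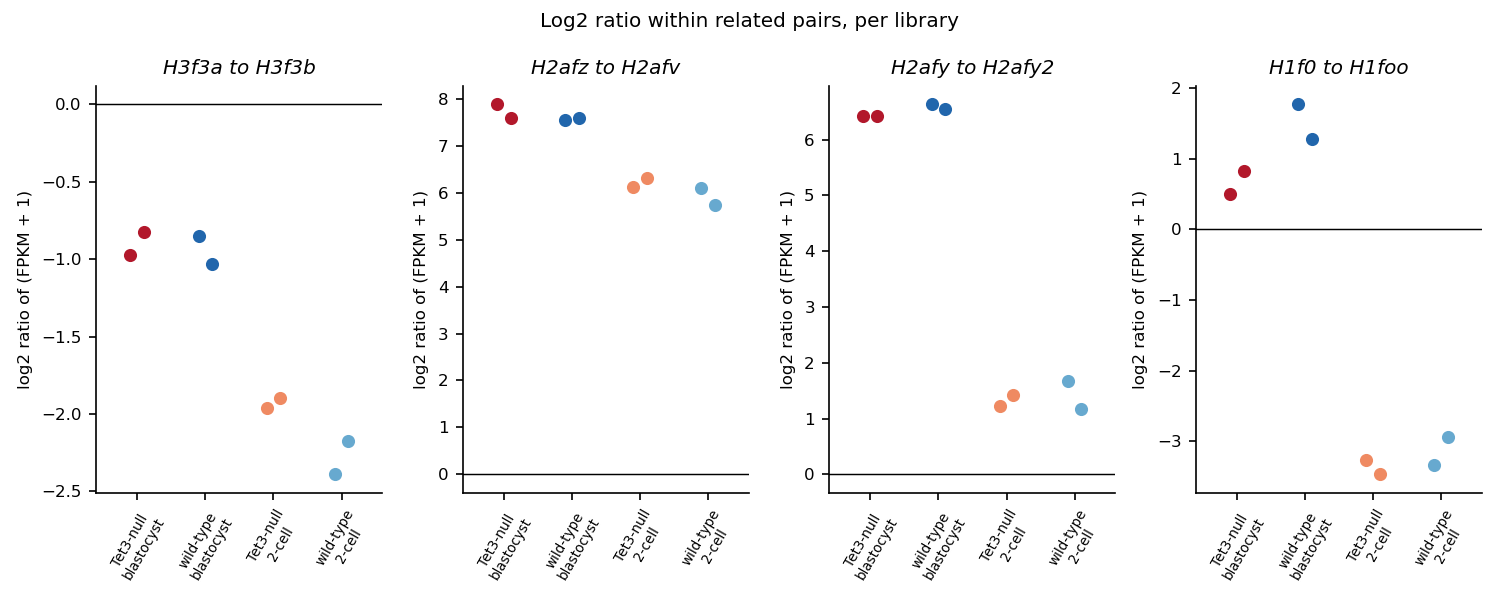
Log2 ratio of FPKM + 1 within 4 pairs of related genes, per library, with Tet3-null and wild-type blastocysts left of Tet3-null and wild-type 2-cell embryos and a line at equal levels. In each pair the 4 blastocyst points lie above the 4 2-cell points.

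Most of these stage changes did not rest on the library that stood apart. Without Tet3-null 2-cell replicate 2, the 7 called members of the Tet3-null comparison were called again, with log2 changes of -4.18 for H1foo, -6.29 for Npm2, -0.88 for H3f3a, -1.95 for H3f3b, -1.59 for H2afv, 2.22 for H2afx and 5.30 for H2afy. They were also called under each of the other alternatives, in both genotypes. Scaling to the same summed FPKM added H1f0 (log2 change -0.99, adjusted p = 0.0121, in Tet3-null and -1.14, adjusted p = 0.00625, in wild type) as well as H2afz. The median of all genes was then -0.37 in Tet3-null and -0.59 in wild-type embryos.

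**Figure D4:**
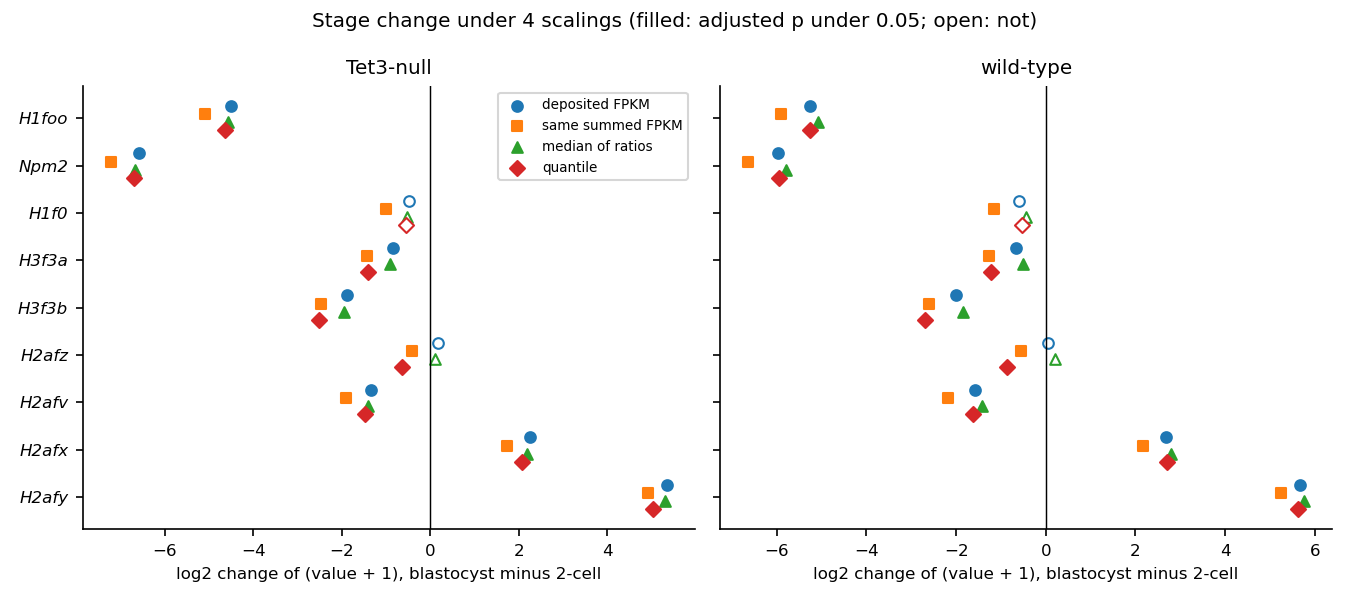
Log2 change of each member, blastocyst minus 2-cell, under the deposited FPKM and 3 other scalings, in Tet3-null (left) and wild-type embryos (right). Filled symbols had an adjusted p under 0.05; H2afz is open and above 0 on the deposited scale and with median-of-ratios scaling, and filled and below 0 under the other scalings.

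No member was called between Tet3-null and wild-type embryos at either stage. The test leaves wide limits: the 95% interval of the log2 difference reached 1.74 for H1foo in blastocysts, and 1.11 for Npm2 and 1.06 for H2afx in 2-cell embryos. In blastocysts 0 of 9 were called by limma (adjusted p from 0.983 to 1; 0 at an unadjusted p under 0.05), where 0.0664% of all genes tested were called and 5.46% had an unadjusted p under 0.05. In 2-cell embryos 0 of 9 were called (adjusted p from 0.197 to 0.964; 1, H3f3a, at an unadjusted p under 0.05), where 2.72% of all genes were called and 23.7% had an unadjusted p under 0.05. That background was unsteady: 83 genes were called higher and 285 lower, against 83 and 64 with median-of-ratios scaling, 94 and 104 with quantile normalization, 3453 in all without Tet3-null 2-cell replicate 1, 314 without replicate 2 and 8 to 28 without any 1 of the other 6 libraries. The median log2 difference of the 9 members was 0.00299 in blastocysts and 0.03 in 2-cell embryos, against -0.02 and -0.17 over all genes.

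In blastocysts H1foo showed the widest difference between genotypes, on very low values: the 2.26 and 2.12 FPKM of Tet3-null libraries lay above the 0.287 and 1.51 FPKM of wild-type libraries (log2 difference 0.83, 95% interval -0.08 to 1.74, limma adjusted p = 0.983). Without wild-type replicate 1 the difference was 0.34. H3f3a was also higher in both Tet3-null libraries (0.11, -0.17 to 0.39, adjusted p = 1), and H2afy was lower in both (-0.28, -0.91 to 0.35, adjusted p = 1). These 3 of the 9 tested members did not overlap between genotypes, where 44.2% of all genes did not (19% higher and 25.3% lower). For H3f3b, H2afz, H2afv, H2afx, H1f0 and Npm2 the blastocyst groups overlapped, with log2 differences between -0.14 and 0.06.

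In 2-cell embryos the Tet3-null libraries lay above the wild-type ones for H3f3a, H2afx and Npm2, and below them for no tested member. Of all genes tested, 47.5% did not overlap: 12.6% of all genes were higher and 34.9% lower in Tet3-null. H3f3a had 487 and 465 FPKM in Tet3-null, against 363 and 416 FPKM in wild-type embryos, a log2 difference of 0.29 (95% interval 0.01 to 0.57; across all genes, limma adjusted p = 0.197). With median-of-ratios scaling it was 0.57 (adjusted p = 0.0715), and over all alternatives its adjusted p lay between 0.0715 and 0.487. H2afx had 6.57 and 6.20 FPKM in Tet3-null, against 4.08 and 4.95 FPKM in wild-type embryos (0.43, -0.21 to 1.06, adjusted p = 0.372).

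Npm2 had 99.2 and 151 FPKM in Tet3-null, against 78.7 and 98.1 FPKM in wild-type 2-cell embryos (log2 difference 0.47, 95% interval -0.17 to 1.11, limma adjusted p = 0.329). The difference was 0.17 without Tet3-null replicate 2 and 0.77 without replicate 1. None of the 10 oocyte markers was called. They summed to 1851 and 2458 FPKM in the Tet3-null libraries, against 1574 and 1847 FPKM in the wild-type ones. Most of each sum was Oosp1, at 1530 and 1992 FPKM in Tet3-null, against 1395 and 1223 FPKM in wild-type libraries. Only 4 of the 10 markers had a positive log2 difference, and the median of the 10 was -0.05. The part of these markers in the Npm2 value was not tested. H1foo, the other oocyte member, overlapped between genotypes (0.07, -0.84 to 0.99, adjusted p = 0.935). H3f3b (-0.06, -0.34 to 0.22), H2afz (-0.09, -0.42 to 0.25), H2afv (-0.38, -0.999 to 0.25), H1f0 (-0.15, -0.75 to 0.45) and H2afy (0.03, -0.60 to 0.66) overlapped as well. As a share of the H3.3 mRNA, H3f3a made up 20.4% and 21.2% in Tet3-null, against 16.0% and 18.1% in wild-type 2-cell embryos, and 33.8% and 36.1%, against 35.7% and 32.8%, in blastocysts. With 2 libraries against 2 an exact permutation test cannot go below 0.333, so these shares were not tested.

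**Figure D5:**
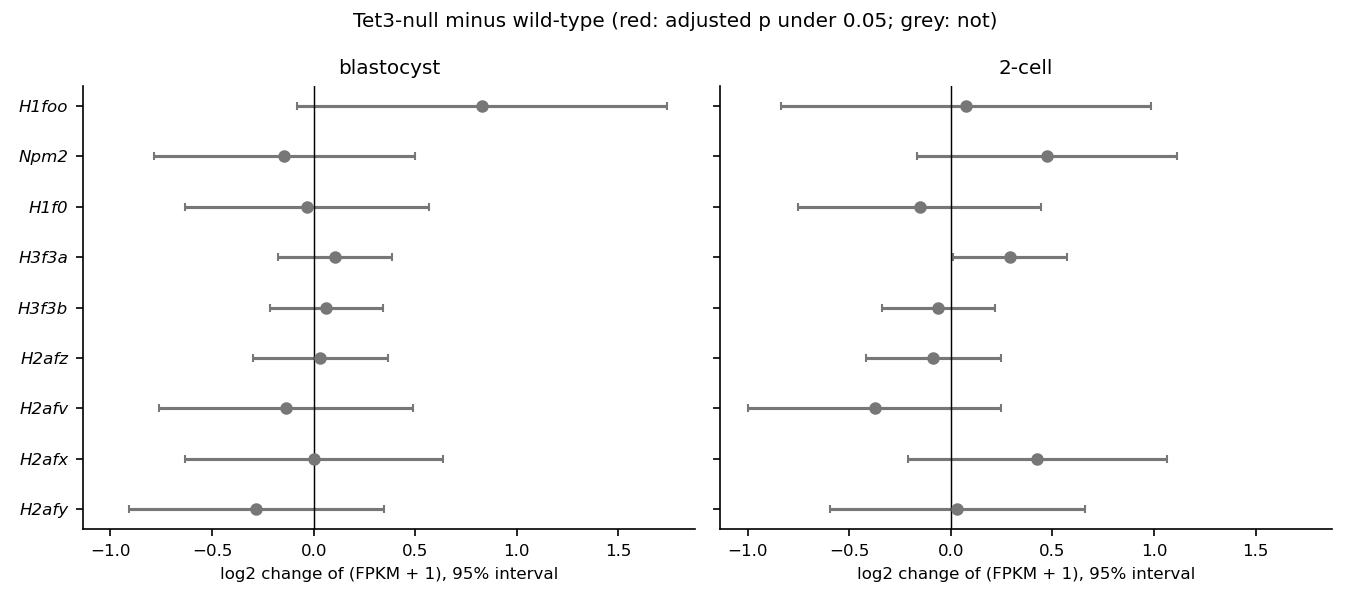
Log2 difference of FPKM + 1, Tet3-null minus wild-type, with 95% intervals for the 9 members tested, in blastocysts (left) and 2-cell embryos (right). All points are grey, as none had an adjusted p under 0.05; the 2-cell interval of H3f3a is the only one that leaves out 0.

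The genotype differences at the 2 stages were themselves compared. For 0 of the 9 members did the blastocyst difference depart from the 2-cell difference by limma (adjusted p from 0.495 to 0.911; 0 at an unadjusted p under 0.05), where 0.14% of all genes tested were called and 14.4% had an unadjusted p under 0.05. The widest departures were in Npm2 (-0.62, 95% interval -1.52 to 0.29) and in H1foo (0.75, -0.54 to 2.04).

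The factors that place H3.3 and H2A.Z, other chaperones and the enzymes around H2A.X were compared between stages in the same fit. The counts of all 6 lists are to be read against all genes, of which 38.9% rose and 35.1% fell in Tet3-null blastocysts, and 35.8% and 38.4% in wild-type blastocysts. Of the 8 H3.3 deposition genes, 1 rose and 4 fell (limma adjusted p under 0.05, as in the counts that follow) in Tet3-null blastocysts (median log2 change -0.77, against 0.09 over all genes), and 0 higher and 6 lower in wild-type blastocysts (median -0.96, against -0.08). Dek, an H3.3 chaperone, fell to 28.8 ± 0.728 FPKM in Tet3-null blastocysts, against 118 ± 5.44 FPKM in 2-cell embryos (SD, n = 2 each; log2 change -2.00, limma adjusted p = 9.07e-06), and to 30.4 ± 1.10 FPKM in wild-type blastocysts, against 109 ± 2.40 FPKM (-1.80, adjusted p = 1.56e-05). Ubn2, a subunit of the HIRA complex, fell with a log2 change of -1.92 in Tet3-null and -2.02 in wild-type embryos. Cabin1, another subunit, fell with -1.01 in Tet3-null and -0.98 in wild-type embryos. Asf1a, which hands H3.3 to HIRA, had -1.56 in Tet3-null and -1.10 in wild-type embryos, both called. The gene called higher in Tet3-null embryos was Daxx (0.94, adjusted p = 0.0486), named after its value was seen. This call was lost with median-of-ratios scaling, quantile normalization, a replicate block or the same summed FPKM. Hira itself was called in neither genotype, at 3.36 ± 0.464 FPKM in Tet3-null blastocysts, against 2.47 ± 2.68 FPKM in 2-cell embryos, and 2.94 ± 0.727 against 5.27 ± 0.480 FPKM in wild type; it too was named after its values were seen.

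Of the 12 H2A.Z exchange genes tested, out of 13 in the list, 7 rose and 2 fell in Tet3-null blastocysts (median 0.69) and 6 and 4 in wild-type blastocysts (median 0.35). Ruvbl2, an ATPase of the SRCAP and TIP60 complexes, rose to 452 ± 15.3 FPKM in Tet3-null blastocysts, against 10.1 ± 2.57 FPKM in 2-cell embryos (log2 change 5.37, limma adjusted p = 7.60e-07), and to 423 ± 9.09 FPKM in wild-type blastocysts, against 16.2 ± 1.31 FPKM (4.63). Its partner Ruvbl1 was at 130 ± 2.33 against 97.6 ± 15.3 FPKM in Tet3-null, called higher (0.41, adjusted p = 0.0383), and at 125 ± 5.60 against 120 ± 9.80 FPKM in wild type, not called; it was named after its values were seen. Dmap1 rose by 2.99 in Tet3-null and 3.395 in wild-type embryos, and Znhit1, which shares the SRCAP complex with it, by 2.80 in Tet3-null and 1.67 in wild-type embryos. Vps72, the subunit that binds H2A.Z, rose by 1.78 in Tet3-null and 2.17 in wild-type embryos. Yeats4, of the same list, went the other way. It was at 13.3 ± 0.144 against 42.7 ± 8.55 FPKM in Tet3-null and 17.7 ± 0.687 against 29.3 ± 0.418 FPKM in wild type. Yeats4 was named after its values were seen. Of 16 general histone chaperones, 10 rose and 2 fell in Tet3-null blastocysts (median 0.72) and 8 and 2 in wild type (median 0.38). Ssrp1, of the FACT complex, rose by 1.90 in Tet3-null and 1.76 in wild-type embryos. Ipo4, an importin of histones, rose by 1.51 in Tet3-null and 1.39 in wild-type embryos, and Chaf1b, of the replication-coupled CAF-1, by 1.55 in Tet3-null and 1.17 in wild-type embryos. Supt16h, the other FACT subunit, rose by 1.48 in Tet3-null and 0.91 in wild-type embryos. Asf1b, a chaperone of dividing cells, fell, with -0.98 in Tet3-null and -1.85 in wild-type embryos. These upward counts depend on scaling. With each library scaled to the same summed FPKM the H2A.Z exchange counts became 5 higher and 4 lower for Tet3-null and 4 and 6 for wild-type embryos, and the chaperone counts 5 and 4, and 3 and 7. The H3.3 counts became 0 and 6 in both genotypes. Over all genes the counts were then 4218 higher and 5868 lower in Tet3-null embryos (median -0.37). In wild-type embryos they were 3647 and 6464 (median -0.59). The list medians, Tet3-null first, were 0.12 and -0.25 for H2A.Z exchange and 0.13 and -0.22 for the chaperones. These stayed above the medians of all genes. The H3.3 medians, -1.30 and -1.53, stayed below them.

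Of 11 genes that phosphorylate H2A.X, remove its phosphate or bind it, 3 rose and 6 fell in Tet3-null blastocysts (median -0.47) and 2 and 5 in wild type (median -0.38). With the same summed FPKM the counts were 0 and 7 in both genotypes. The medians were then -0.91 in Tet3-null and -0.94 in wild-type embryos, against -0.37 and -0.59 over all genes. Eya1, a phosphatase of the H2A.X tail, fell with a log2 change of -2.24 in Tet3-null and -2.22 in wild-type embryos. Rnf168, the ubiquitin ligase recruited downstream of H2A.X, had -1.95 in Tet3-null and -1.93 in wild-type embryos, and Ppm1d, another phosphatase, had -1.495 in Tet3-null and -1.39 in wild-type embryos, all called. Rnf8, the ubiquitin ligase upstream of Rnf168, had -1.30 in Tet3-null and -1.21 in wild-type embryos, and Atm, a kinase of H2A.X, had -0.85 in Tet3-null and -1.30 in wild-type embryos, also called lower. Atr, another kinase, went the other way, at 3.41 ± 0.115 against 1.43 ± 0.673 FPKM in Tet3-null and 3.47 ± 0.239 against 1.63 ± 0.393 FPKM in wild type. So did Eya3, another phosphatase, at 8.90 ± 0.684 against 4.25 ± 0.582 FPKM in Tet3-null and 8.95 ± 0.509 against 5.01 ± 0.268 FPKM in wild type. Both were named after their values were seen. Of 9 tested genes of the 3′ processing of replication-coupled histone mRNA, 2 rose and 5 fell in Tet3-null (median -0.70) and 2 and 4 in wild type (median -0.37). Lsm10, of the U7 particle, fell with a log2 change of -2.41 in Tet3-null and -1.71 in wild-type embryos. Casp8ap2 had -2.68 in Tet3-null and -2.80 in wild-type embryos, and Npat, the histone gene coactivator, had -1.29 in Tet3-null and -1.68 in wild-type embryos, all called lower. Cpsf3, the endonuclease, rose by 4.08 in Tet3-null and 3.76 in wild-type embryos. Of 6 tested variants beyond the members, out of 9 in the list, 2 rose and 3 fell in Tet3-null blastocysts, and 2 and 2 in wild-type ones. Hist1h2aa, a testis and oocyte variant of H2A, fell to 4.07 ± 0.273 FPKM in Tet3-null blastocysts, against 16.7 ± 12.2 FPKM in 2-cell embryos (log2 change -1.61, limma adjusted p = 0.0224), and to 3.43 ± 0.614 FPKM in wild-type blastocysts, against 14.1 ± 6.77 FPKM (-1.69, adjusted p = 0.0183). Hist1h1t, a testis linker histone, was called higher, at 2.00 and 0.912 FPKM in Tet3-null and 1.82 and 2.53 FPKM in wild-type blastocysts, and is listed at 0 in the 4 2-cell libraries. H2afj, a variant of H2A, rose by 1.67 in Tet3-null and 1.34 in wild-type embryos. Cenpa, the centromeric H3, fell, with -1.29 in Tet3-null and -0.83 in wild-type embryos. Without Tet3-null 2-cell replicate 2 the counts in Tet3-null embryos were 1 higher and 5 lower for H3.3 deposition, 6 and 3 for H2A.Z exchange, 9 and 2 for the chaperones, 3 and 6 for the H2A.X list, 4 and 5 for 3′ processing and 2 and 2 for the other variants. In the fit of all 8 libraries no gene of these 6 lists was called between genotypes at either stage. Under the 5 alternatives run for the lists, 1 gene of the H2A.X list was called lower in Tet3-null 2-cell embryos when replicate 2 was left out, and 1 of the H2A.Z exchange list with the same summed FPKM; the other left-out libraries were not run for the lists.

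Genes with the most similar course were found by the Euclidean distance of the 8 log2(FPKM + 1) values, each gene centred on its mean. Nearest to H1foo were Rbp7, a retinoid-binding protein (distance 0.939), Arg2, the mitochondrial arginase (0.955), and Lpar6, a lysophosphatidic acid receptor (1.02). Nearest to Npm2 were Kbtbd8, a ubiquitin ligase adaptor (0.437), Gm428 (0.522) and Tmprss11a, a serine protease (0.622). Kbtbd8 measured 0.922 and 0.403 FPKM in Tet3-null and 0.739 and 0.908 FPKM in wild-type blastocysts, against 132 and 212 FPKM in Tet3-null and 102 and 94.3 FPKM in wild-type 2-cell embryos. Nearest to H3f3a were BC006965 (0.176) and 5430421F17Rik (0.195), both at no more than 1.47 FPKM. Nearest to H2afz were Tsg101, of the endosomal sorting complex (0.157), Rnf7, a RING subunit of cullin ligases (0.171), and Nup107, of the nuclear pore (0.191). Distances describe these 8 libraries only.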

How the data were processed

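The deposited values are FPKM per gene symbol, made by the authors on mm9; the submitters' processing notes name Cufflinks 2.2.0, Bowtie2 2.1.0 and TopHat2 2.0.10. Annotation, settings and the treatment of shared reads are not given. Libraries came from amplified cDNA by a kit without strand marking, per the labels' protocols, so antisense transcripts cannot be told apart. Read totals are unknown, since FPKM keeps no depth. The relative depth read from steps of values under 0.15 FPKM was 1.02 to 1.31 times that of wild-type replicate 1 of the stage.

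Genes that reached 1 FPKM in 2 or more libraries (13549 of 23234) were fitted as log2(FPKM + 1), which understates changes of low genes, in limma 3.58.1 (R 4.3.3) with 4 group means and eBayes with trend (residual degrees of freedom 4, prior 3.07), two-sided. Log2 ratios of pairs were compared by exact permutation (scipy 1.17.1). Transcript windows and coding sequences came from GENCODE M21, promoters and synonyms from RefSeq GRCm38.p6. The scripts were tested on simulated data. The members, gene lists and tests were chosen with earlier results of these data known. All members are named, and from each list the called genes, at most the 4 largest by log2 change in a comparison; for 4 members the 3 nearest genes are given, of which 1 is not reported here. Alternatives were another pseudocount, filter, scaling, replicate block, spread from 4 libraries, and leaving out each library. Same-numbered libraries did not deviate together (r -0.0756 at the 2-cell stage and 0.0184 in blastocysts), so numbers were not taken as pairs.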

Additional observations from a re-analysis of the deposited data

How the results depend on the processing

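No call of a member was lost or reversed under any alternative run, and 623 of 666 member values kept both direction and side of the threshold. No member was called between genotypes under any of them. None was called for the difference of the genotype effect between stages either. Called stage changes numbered 7 to 9 per genotype; beyond the 7 they took in H2afz (quantile, same summed FPKM) and H1f0 (same summed FPKM; in wild type also without either Tet3-null 2-cell library).

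Counts over all genes moved. The 368 genes called between genotypes in 2-cell embryos became 243 with a pseudocount of 0.1, 147 with median-of-ratios scaling (83 higher, 64 lower), 198 with quantile normalization (94 higher, 104 lower), 578 with the same summed FPKM, 3 from the 2-cell libraries alone and 31 with the replicate block. The block changed no member's call. Leaving out single libraries gave 8 to 3453 genes. Genes called for the difference between stages, 19 in the main fit, became 35 with no filter and 13 to 1703 with a library left out, the highest without Tet3-null 2-cell replicate 1 and 42 without replicate 2.

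Values that changed sign were, apart from H2afz between stages, small and never called; the cause was not tested. In 2-cell embryos (Tet3-null minus wild type) they were, with median-of-ratios scaling, 0.0892 for H1f0, 0.22 for H3f3b and 0.20 for H2afz, and with quantile normalization 0.0584 for H1f0. With a library left out they ranged from -0.27 to 0.42 for H1foo, -0.38 to 0.0695 for H1f0, -0.13 to 0.0038 for H3f3b, -0.24 to 0.0650 for H2afz and -0.38 to 0.44 for H2afy. In blastocysts they were 0.0101 and 0.0370 for H1f0 with these scalings and -0.0212 for H2afx with the same summed FPKM, with ranges of -0.27 to 0.21 for H1f0, -0.0239 to 0.15 for H3f3b, -0.41 to 0.42 for H2afx, -0.31 to 0.0397 for H2afv and -0.41 to 0.13 for Npm2. The genotype difference in blastocysts minus that in 2-cell embryos was -0.0791 (median of ratios) and -0.0214 (quantile) for H1f0. It was -0.10 for H3f3b and -0.11 for H2afz (median of ratios). With a library left out it ranged from -0.12 to 0.36 for H1f0 and -0.0320 to 0.27 for H2afz. The ranges were -0.0591 to 0.54 for H2afv and -0.72 to 0.10 for H2afy. H2afz between stages was -0.64 in Tet3-null and -0.85 in wild type with quantile normalization, -0.41 and -0.55 with the same summed FPKM, and -0.0596 to 0.18 in wild type with a library left out.

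The differences of the 4 log2 ratios ranged, with a library left out, from 1.09 to 1.26 (H3f3a to H3f3b), 1.47 to 1.66 (H2afz to H2afv), 5.07 to 5.23 (H2afy to H2afy2) and 4.12 to 4.54 (H1f0 to H1foo); 4 libraries against 3 cannot go below an exact permutation p of 0.0571. Without counts the depth of a single value is unknown, and H2afy2, Npm2 and H1foo in blastocysts rest on few reads.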
